A study of Arabidopsis thaliana with 20 samples.

Results

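The plastid genes trnQ, trnT and trnM of Arabidopsis thaliana are 3 of the 111 plastid genes measured and 3 of the 30 plastid tRNA genes. They were selected on the genotype difference itself: the log2 ratio of protein-bound to total DNA was lower in ptac3 than in Col-0 seedlings. Their values in the seedlings are therefore a description, with no test, and the leaf libraries, which the selection did not use, carry the tests. In the gene table each name belongs to a single locus: trnQ to ArthCt090, trnT to ArthCt098 and trnM to ArthCt104. Their lengths are 72, 72 and 73 bp. The tRNA gene ArthCt100 is named there by its locus only, so its amino acid is not given and may be that of trnQ, trnT or trnM. It is counted among the other tRNA genes, with a genotype difference of -0.25.

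The assay, in vivo protein occupancy display (IPOD), crosslinks protein to DNA with formaldehyde and recovers the DNA that carries protein (IPOD) beside unfractionated DNA (input). Leaf libraries, 4 IPOD and 4 input, came from 5 g of rosette leaves of wild-type Col-0 grown for 14 days in soil, and fixation followed chloroplast isolation. Seedling libraries, 3 IPOD and 3 input for each genotype, came from 50 plate-grown seedlings of 4 to 5 days under continuous light, Col-0 or ptac3, fixed before the chloroplasts were isolated. Leaf and seedlings thus differed in age, growth and order of fixation, so their values are set side by side without a test. Fixation in every library was with 4% formaldehyde for 4 h. The ptac3 libraries are named so by title and cell line, yet their genotype label says wild type. The labels do not name the ptac3 allele, and PTAC3 is a nuclear gene, so plastid depth cannot check the mutant. The third Col-0 IPOD library has Col-0 in its title and ptac3 in its cell line label. It was kept as Col-0, and values without it are given below. The labels do not say whether the numbered libraries came from separate plants, so p-values measure the spread between libraries, which may be technical.

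Each of the 3 genes encodes a transfer RNA of the plastid translation machinery: trnQ the glutamine tRNA, trnT a threonine tRNA and trnM the methionine tRNA used in elongation, distinct from the initiator tRNA of trnfM. Plastid genes are transcribed by a bacterial-type RNA polymerase encoded in the plastid (PEP) and a phage-type polymerase encoded in the nucleus, and most plastid tRNA genes are known as PEP genes. PTAC3 is a nuclear-encoded protein of the plastid transcriptionally active chromosome, known to associate with PEP and to be needed for its activity. IPOD recovers DNA with any crosslinked protein and does not name the protein.

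Depth was the deposited number of reads over each base. A level is the mean depth of a gene divided by the mean depth of its library, and a ratio is the log2 of IPOD over input after a small constant was added to both. Library mean depth ran from 54.5 to 3383 reads per base, and the mean depth inside the 3 genes from 62.0 to 5024. A level is a share of its library, so DNA bound in fewer plastids and less protein per plastid genome cannot be told apart. Leaf inputs 1 and 3 were alike over 50 bp bins (r = 0.944) and so were inputs 2 and 4 (r = 0.776), while inputs across these sets had r between -0.195 and 0.328. Seedling libraries of 1 group and fraction had r of at least 0.93.

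trnQ, the glutamine tRNA gene, had the highest ratio of the 111 genes in Col-0 seedlings. Its level in the Col-0 IPOD libraries was 4.74, 4.59 and 3.13 times the library mean, and in the Col-0 inputs 2.37, 1.99 and 2.08. In ptac3 the IPOD levels were 1.78, 1.56 and 1.37 and the input levels 1.85, 1.59 and 1.65. The Col-0 IPOD libraries were all above the Col-0 inputs, whereas the ptac3 IPOD libraries lay within or below the range of their inputs. The ratio by same-numbered pair was 0.97, 1.17 and 0.57 in Col-0 and -0.048, -0.024 and -0.24 in ptac3. Means were 0.90 ± 0.30 (SD, n = 3) and -0.11 ± 0.12 (SD, n = 3), a difference of -1.01, and the 2 sets of pairs did not overlap. Same-numbered Col-0 libraries deviated together from their group means only weakly (r = 0.257, 0.221 and 0.023 over bins). Col-0 pairs here and below are therefore matched by number alone. The mean ratio does not depend on that matching, whereas the SD, the overlap of pairs and shares counted by pair do.

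trnT, a threonine tRNA gene, had a level of 1.54, 1.76 and 1.39 in the Col-0 IPOD libraries. In the Col-0 inputs it was 0.927, 0.915 and 0.913. In ptac3 the levels were 0.901, 0.858 and 0.719 with IPOD and 0.847, 0.830 and 0.792 in the inputs. The Col-0 IPOD libraries stood apart from the other 9 seedling libraries, which all lay under the library mean. This gap is part of the contrast that selected the genes, and its share over all genes was not counted. Pair ratios were 0.68, 0.88 and 0.56 in Col-0 and 0.085, 0.046 and -0.12 in ptac3. Means were 0.71 ± 0.16 (SD, n = 3) and 0.0049 ± 0.11 (SD, n = 3), a difference of -0.70, again without overlap.

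trnM, the elongator methionine tRNA gene, was the least covered of the 3. Its level was 0.898, 1.10 and 0.937 in the Col-0 IPOD libraries and 0.545, 0.531 and 0.611 in the inputs. In ptac3 it was 0.596, 0.739 and 0.683 with IPOD and 0.583, 0.707 and 0.728 in the inputs. The ptac3 IPOD and input libraries overlapped, and all 3 Col-0 IPOD libraries were above them. The share of all genes with this gap, part of the selecting contrast, was not counted either. Pair ratios were 0.64, 0.93 and 0.55 in Col-0 and 0.034, 0.060 and -0.072 in ptac3. Means were 0.71 ± 0.20 (SD, n = 3) and 0.0074 ± 0.070 (SD, n = 3), a difference of -0.70 without overlap.

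**Figure D1:**
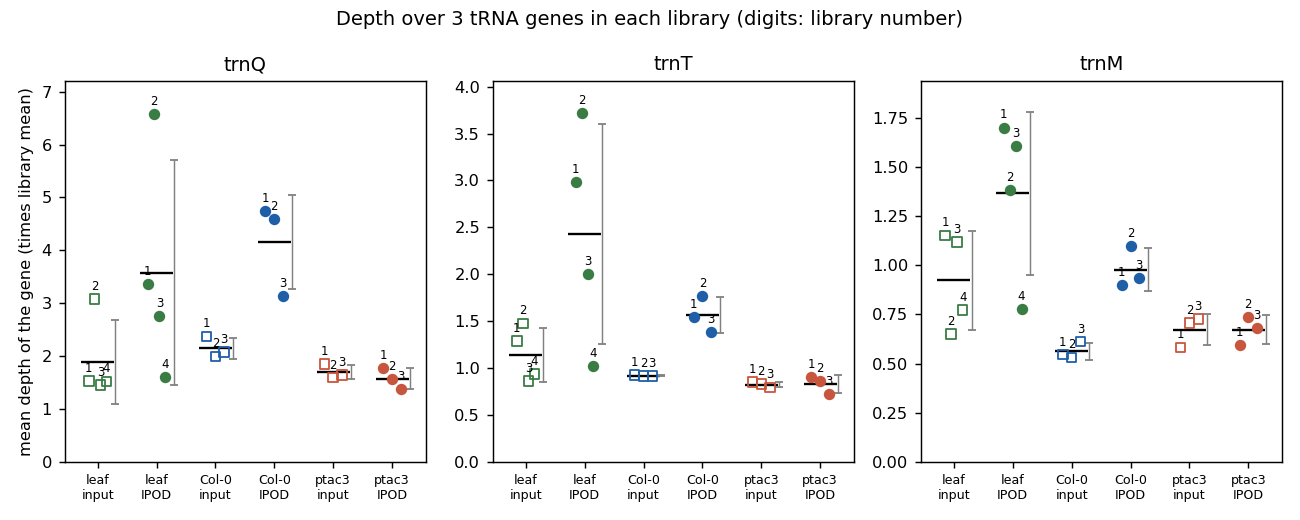
Mean depth of trnQ, trnT and trnM as a multiple of the library mean (vertical axes, each starting at 0) in every library; open squares are inputs, filled circles are IPOD libraries, digits give the library number, black lines the group mean and grey bars 1 SD. Col-0 seedling IPOD libraries lie above their inputs in all 3 genes, ptac3 IPOD libraries beside theirs, and leaf libraries are the most spread.

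Among all 111 genes, the IPOD libraries were all above the inputs for 19.8% of genes in Col-0, trnQ, trnT and trnM included, and for 4.5% in ptac3, with 0 of the 3. In leaf this held for 3.6% of genes and 0 of the 3. Pair ratios were all above 0 in Col-0 for 26.1% of genes, and the ptac3 ratios were all below the Col-0 ratios for 18.9%. All 3 genes were in both groups, which the selection favoured. With limma, 7.21% of genes were called higher in Col-0 IPOD than input (8 genes, the 3 included) and 0% in ptac3. At an unadjusted p under 0.05, 4 genes were higher and 1 lower in ptac3, none of them trnQ, trnT or trnM. The genotype difference was called lower for 2.7% of genes, which are these 3 by their selection.

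The threshold of the selection did not separate these genes sharply from other tRNA genes. Just inside it were trnQ at -1.01 and trnM at -0.70, and just outside were trnL (Arthct122) at -0.996 and trnS (ArthCt117) at -0.44. From the lowest, trnQ ranked 1, trnT 4 and trnM 5 of 111 genes in the difference. The other 27 tRNA genes had a median difference of -0.25, from -0.996 to 0.0024, and all 111 genes a median of 0.088. Without the third Col-0 IPOD library the differences were -1.20 for trnQ, -0.78 for trnT and -0.73 for trnM, and 7 genes were called lower in place of 3. Without Col-0 input 2, 0 genes were called, with differences of the 3 genes still between -1.20 and -0.62 whichever library was left out. With the replicate number as a block, 30 genes were called, 17 of them lower. The block also matched the Col-0 libraries by number, although these were not taken as pairs.

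The ratios of all genes were also less spread in ptac3. The SD of the ratio over the 111 genes was 0.262, 0.321 and 0.192 in the Col-0 pairs and 0.142, 0.108 and 0.140 in the ptac3 pairs. trnQ ranked 1, 1 and 3 from the highest in the Col-0 pairs and 86, 75 and 102 in the ptac3 pairs. trnT ranked 5, 5 and 4 in Col-0 and 42, 43 and 92 in ptac3, and trnM 7, 3 and 5 against 57, 36 and 85. The 3 genes therefore moved from the top of the order in Col-0 to its middle or lower part in ptac3, a description of the contrast that selected them. The part of the narrower spread in their difference was not tested.

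The same difference was then split into its fractions. In the IPOD libraries alone, the log2 level in ptac3 minus that in Col-0 was -1.33 for trnQ, -0.84 for trnT and -0.47 for trnM. As a fold, the ptac3 IPOD level was 0.397 of that in Col-0 for trnQ, 0.559 for trnT and 0.722 for trnM. In the inputs the difference was -0.32 for trnQ and -0.14 for trnT, each without overlap of the genotypes. It was 0.23 for trnM, where the genotypes overlapped. The share of all genes without overlap in the inputs was not counted. The median over all genes was 0.14 in IPOD and 0.031 in input. trnQ was the gene with the lowest difference in IPOD and the second lowest in input, while trnM ranked 16 from the lowest in IPOD and 102 in input. The mean trnM ratio thus differed between genotypes through a lower IPOD level and a higher mean input level. The genotypes overlapped in that input, and its difference was not tested. The ratios of trnQ and trnT differed through a decrease in IPOD that was larger than a change of the same sign in the input.

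**Figure D2:**
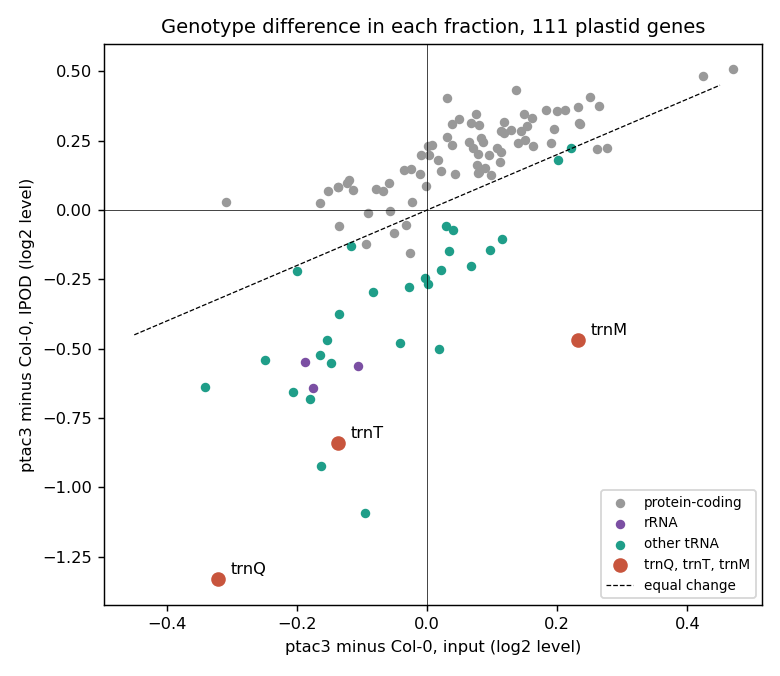
Difference in mean log2 level between ptac3 and Col-0 seedlings in the input (horizontal axis) and in IPOD (vertical axis) for 111 plastid genes, coloured by kind; on the dashed line both fractions differ equally and the ratio does not. trnQ (-0.32, -1.33) and trnT (-0.14, -0.84) lie below the line on the left, and trnM (0.23, -0.47) below it on the right.

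The raised ratio in Col-0 was placed differently around each gene. In 10 bp steps on TAIR10, the highest Col-0 step was at ChrC 6696-6705 for trnQ, with a mean ratio of 1.04. It was at 31359-31368 for trnT, with 0.77, and at 52046-52055 for trnM, with 0.92. These steps lie 49 bp, -41.0 bp and -41.5 bp from the gene middle, where a positive distance is toward higher positions, and each is just outside the gene. The stretch around the step whose ratio exceeded 50% of it was 170 bp long at trnQ, 160 bp at trnT and 360 bp at trnM. Fragment and read length are not given in the sources used here, so a step does not mark a binding site to 10 bp.

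Around trnQ the raised stretch reached toward psbK. In Col-0 the 100 bp on that side had a ratio of 0.91 ± 0.30 (SD, n = 3), and the 100 bp toward rps16 had 0.33 ± 0.20 (SD, n = 3). The next 100 bp toward rps16 were at -0.46 ± 0.18 (SD, n = 3), with pairs from -0.63 to -0.27. Around trnM the raised stretch lay toward trnV (ArthCt103): the 100 bp on that side had 0.82 ± 0.38 (SD, n = 3), the next 100 bp 0.78 ± 0.37 (SD, n = 3), and the 100 bp toward atpE 0.12 ± 0.090 (SD, n = 3). Around trnT the sides were closer, with 0.56 ± 0.088 (SD, n = 3) toward trnE and 0.38 ± 0.16 (SD, n = 3) toward psbD. As background, on the standard map of the Arabidopsis plastid genome trnQ is read toward rps16 and trnT and trnM are read toward psbD and atpE. The gene table used here gives no reading direction. On that map the highest Col-0 step of each gene is on its 5′ side.

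In ptac3 the same stretches were close to 0. The 100 bp on the psbK side of trnQ had 0.031 ± 0.14 (SD, n = 3), the 100 bp toward trnE at trnT 0.0054 ± 0.17 (SD, n = 3), and the 100 bp toward trnV (ArthCt103) at trnM 0.043 ± 0.23 (SD, n = 3). The highest ptac3 steps within the flanks were 0.17, 0.21 and 0.36 and lay elsewhere. At trnM the highest ptac3 step was 128.5 bp from the gene middle toward atpE. The 100 bp on that side had 0.28 ± 0.091 (SD, n = 3), with pairs from 0.18 to 0.36. How many windows beside other genes reach such values was not counted.

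**Figure D3:**
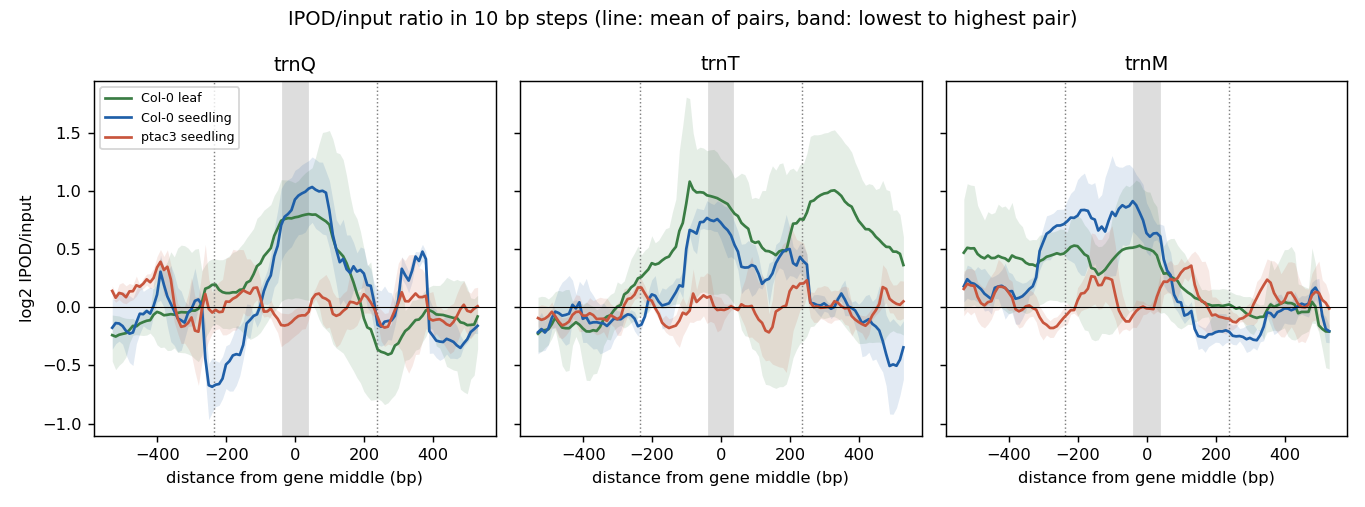
Log2 IPOD/input in 10 bp steps against the distance from the middle of trnQ, trnT and trnM (bp); lines are means over same-numbered pairs, bands run from the lowest to the highest pair, grey marks the gene and dotted lines the end of the 200 bp flanks. Col-0 seedlings peak at 1.04, 0.77 and 0.92 beside the genes, where ptac3 is near 0. Away from those peaks ptac3 reaches 0.39 in the window of trnQ and 0.36 in that of trnM. The leaf bands are wide: over each gene pair 4 is the lowest, and over trnM pair 2 is far above the others.

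In leaf, where the genes were not selected, all 3 ratios were above 0 in every pair. For trnQ they were 1.09, 1.08, 0.88 and 0.075, with a mean of 0.78 ± 0.48 (SD, n = 4). For trnT they were 1.15, 1.29, 1.12 and 0.11, with a mean of 0.92 ± 0.54 (SD, n = 4). For trnM they were 0.52, 1.00, 0.48 and 0.010, with a mean of 0.50 ± 0.40 (SD, n = 4). Pair 4 was the lowest for each gene and close to the ptac3 pairs, and the other pairs lay within or above the range of the Col-0 seedling pairs, except pairs 1 and 3 of trnM, which were just below it. Ratios were above 0 in all 4 leaf pairs for 22.5% of the 111 genes. trnT had the highest mean leaf ratio of the 111 genes, trnQ ranked 4 and trnM ranked 13.

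Without pairing, none of the 3 leaf ratios passed limma's test. Adjusted p was 0.581 for trnQ, 0.543 for trnT and 0.581 for trnM, and 0% of genes were called higher. At an unadjusted p under 0.05, 8 genes were higher and 1 lower. Of trnQ, trnT and trnM, trnT was among the former. Same-numbered leaf libraries deviated together from their group means (r = 0.843, 0.805, 0.916 and 0.626 over bins), so the number was taken as a pair. Different-numbered libraries were not compared in this way. Leaf inputs 1 and 3 were also alike, as were 2 and 4, so these r do not show that the numbers are true pairs. With the replicate number as a block, trnQ and trnT rose above input (both adjusted p = 0.0299) and trnM did not pass (adjusted p = 0.0666). This fit called 14.4% of genes higher, 16 in all, of which 2 were among the 3 genes and 10 among the other 27 tRNA genes.

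The leaf calls depended on pairs 1 to 3. Leaving out pair 1, 2 or 3 from the blocked fit ended both calls (adjusted p from 0.0843 to 0.182), with ratios of 0.68 to 0.75 for trnQ and 0.79 to 0.85 for trnT. Without pair 4 all 3 genes were called, with ratios of 1.01 for trnQ, 1.19 for trnT and 0.66 for trnM (adjusted p = 0.000391, 0.00026 and 0.00797). That fit called 62 of the 111 genes, 35 of them higher. In pair 4 the ratios of all genes were less spread, with an SD over genes of 0.150 against 0.442, 0.460 and 0.386 in pairs 1 to 3. There trnQ ranked 36, trnT 26 and trnM 49 of 111, while trnT ranked 1 in each of the other 3 pairs. Within leaf libraries 1 and 3 the fit called 83 of the 111 genes, 37 of them higher. The ratios of the 3 genes there were 0.98, 1.14 and 0.50 and all passed (adjusted p = 0.00112, 0.00992 and 0.00112). Within libraries 2 and 4 they were 0.57, 0.70 and 0.50 and none passed (adjusted p = 0.998 for each).

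The levels in leaf show where the spread arose. For trnQ the IPOD levels were 3.36, 6.59, 2.76 and 1.61 and the input levels 1.52, 3.08, 1.45 and 1.52. Library 2 was high in both fractions, so that its ratio of 1.08 was no higher than that of pair 1. For trnT the IPOD levels were 2.98, 3.72, 2.003 and 1.02 and the input levels 1.29, 1.47, 0.860 and 0.937. For trnM they were 1.70, 1.38, 1.61 and 0.778 with IPOD and 1.15, 0.650, 1.12 and 0.772 in the inputs. IPOD and input libraries of leaf overlapped in all 3 genes, and IPOD library 4 was the lowest IPOD library of each.

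Recovery at the gene was then set against its own surroundings. The leaf ratio of the gene minus that of its 200 bp flanks was 0.50, 0.33, 0.30 and 0.29 for trnQ, a mean of 0.36 ± 0.097 (SD, n = 4). It averaged 0.26 ± 0.066 (SD, n = 4) for trnT and 0.22 ± 0.24 (SD, n = 4) for trnM, where pair 2 at 0.57 was far above 0.10, 0.072 and 0.12. The value depended on the flank width: trnQ had 0.16 with flanks of 100 bp and 0.55 with 400 bp, and trnT 0.13 with 100 bp. With 200 bp, all pairs were above 0 for the 3 genes and for 25.2% of all genes. Pair 4 was not apart from the others in this measure at trnQ, in contrast to its ratio of the gene alone.

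Without pairing, no gene was higher than its flanks (0% called), and adjusted p was 0.891, 0.891 and 0.751 for trnQ, trnT and trnM. At an unadjusted p under 0.05, 2 genes were higher and 3 lower by limma, none of the 3 genes among them. With the replicate block, 2.7% of genes rose above their flanks, namely trnQ (adjusted p = 0.0332), trnL (Arthct122) at 0.41 and the tRNA gene ArthCt100 at 0.34. trnT had an adjusted p of 0.0655 and trnM of 0.274. The trnQ call was lost without pair 1 (adjusted p = 0.338), pair 3 (0.251) or pair 4 (0.0519) and held without pair 2 (0.0152). Its value was 0.31, 0.37 and 0.38 without pair 1, 3 or 4, beside 0.36 with all pairs.

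The leaf profiles were broader than those of Col-0 seedlings. The stretch above 50% of the highest step was 240 bp at trnQ and at trnT, and at trnM it was 610 bp and reached the edge of the window of 500 bp beside the gene. Toward psbD, trnT had a further raised stretch in leaf. The window from 300 to 500 bp beyond the gene had ratios of 1.06, 1.11, 0.88 and -0.24 in the 4 leaf pairs. In Col-0 seedlings the same window had -0.14, -0.00080 and -0.42, and in ptac3 0.011, -0.056 and 0.017. It was above all seedling pairs in leaf pairs 1 to 3, and pair 4 was within the seedling range. This window was picked after its values were seen and was not tested.

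Both genes beside trnQ had mean ratios below 0 in Col-0 and leaf, whereas trnT and trnM each had a neighbouring tRNA gene with ratios above 0 in both. rps16, for a ribosomal protein, had a mean ratio of -0.24 in Col-0 and -0.18 in leaf, and psbK, for a photosystem II subunit, had -0.24 and -0.086. At trnM, atpE for a subunit of the ATP synthase had -0.17 and -0.050, and trnV (ArthCt103) for a valine tRNA had 0.22 and 0.41, with 0.00010 in ptac3. At trnT, psbD for a core protein of photosystem II had -0.080 in Col-0 and 0.26 in leaf. trnE, for the glutamate tRNA that also starts tetrapyrrole synthesis, had 0.39 in Col-0, -0.11 in ptac3 and 0.81 in leaf. trnE rose in leaf with the replicate block (adjusted p = 0.0299) but not without it (adjusted p = 0.581), and its genotype difference of -0.50 was not called (adjusted p = 0.335).

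The other 27 tRNA genes had lower ratios by their median in each of the 3 groups than trnT, and the groups ran from leaf through Col-0 to ptac3. trnT had this order too, while trnQ and trnM had a higher mean ratio in Col-0 than in leaf. The median of the 27 ratio was 0.41 in leaf, 0.22 in Col-0 and -0.064 in ptac3, beside -0.063, -0.046 and 0.032 over all 111 genes. In leaf all 27 were above 0 by their mean, from 0.021 for trnK to 0.86 for trnG (ArthCt116). Without pairing 0 of them passed by limma, 5 at an unadjusted p under 0.05. With the replicate block 10 rose: trnY, trnE, trnG (ArthCt116), trnfM, trnP, trnI (ArthCt113), trnV (Arthct121), trnI (ArthCt107), trnA and trnN. trnfM, the initiator counterpart of trnM, had 0.73 in leaf against 0.50 for trnM, but 0.23 in Col-0 against 0.71. In Col-0, 5 of the 27 were called higher, and in ptac3 0 were called, with 0 higher and 1 lower at an unadjusted p under 0.05.

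**Figure D4:**
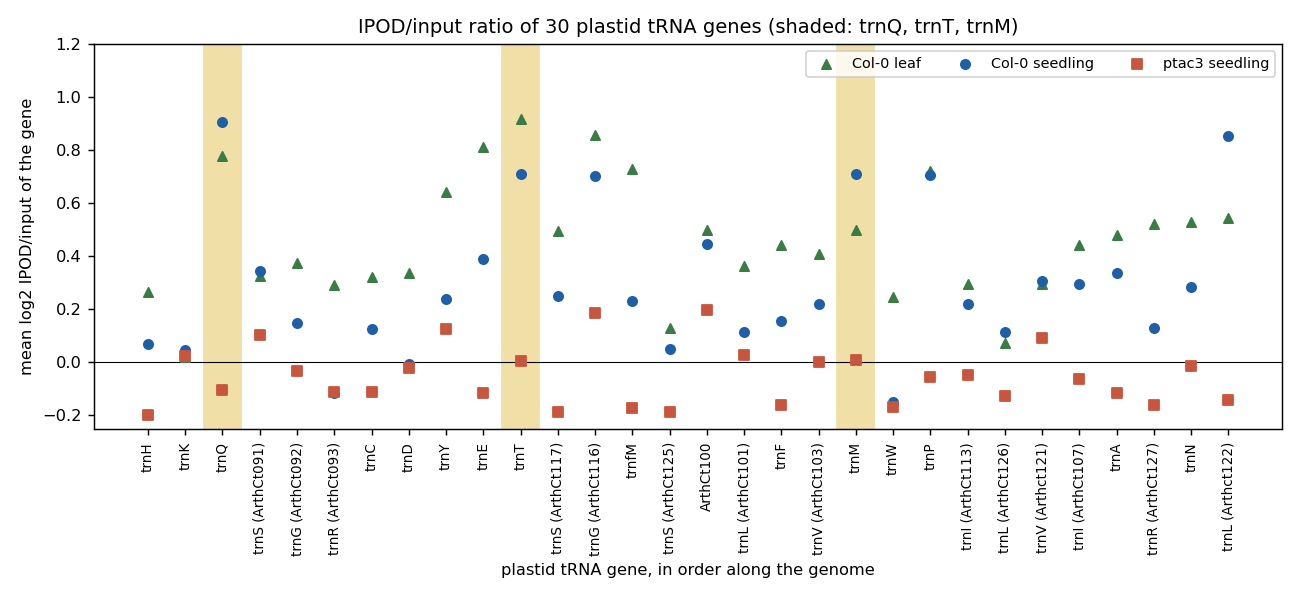
Mean log2 IPOD/input of the 30 plastid tRNA genes in order along the genome, in leaf (triangles), Col-0 seedlings (circles) and ptac3 seedlings (squares); trnQ, trnT and trnM are shaded. The ptac3 squares lie between -0.20 and 0.20, while trnQ, trnL (Arthct122), trnM, trnT, trnP and trnG (ArthCt116) are the highest in Col-0 seedlings, and trnT is the highest in leaf.

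Across the 10 same-numbered pairs, the genes whose ratios were most like those of the 3 were other tRNA genes. For trnQ they were trnL (Arthct122) with a Pearson r of 0.958, trnP with 0.944 and trnT with 0.943. For trnT they were trnG (ArthCt116) with 0.99, trnE with 0.963 and trnQ with 0.943. For trnM they were trnL (Arthct122) with 0.966, trnQ with 0.93 and trnP with 0.888. The 10 points share libraries between genes and fall into 3 groups, and 6 of them are in the contrast that selected the genes, so r is given with no p.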

How the data were processed

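The authors deposited coverage, the number of reads over each of 154477 plastid positions, as whole numbers for 20 libraries with no scaling between them. Per the submitters' processing notes, Trim Galore 0.4.1, Bowtie2 2.2.8.9, bedtools 2.25.0 and TAIR10 were used; their settings are not given in the sources used here. Genes came from a RefSeq table of TAIR10.1, used for names and gene intervals; its mirrored repeat positions matched the best mirror of the depth in 20 of 20 libraries. The second inverted repeat copy, beyond position 128212, was left out, which left 111 genes of at least 70 bp. Depth was divided by the library mean over these positions, with 10% of the median 50 bp bin as pseudocount, and put on the log2 scale. Reads cover many bases, so count models were not used. Tests of IPOD against input used limma 3.58.1 (R 4.3.3), leaf alone and the 12 seedling libraries together, with Benjamini-Hochberg adjusted p over 111 genes and calls under 0.05. Scripts were tested on simulated data. Leaf and ptac3 numbers were taken as pairs from the correlation of same-numbered deviations over bins (leaf 0.626 to 0.916, ptac3 0.228 to 0.771). Those of Col-0 were not (0.023 to 0.257), although the lowest ptac3 value lay within that range. Col-0 pair ratios and the blocked seedling fits therefore matched Col-0 libraries by number alone. Different-numbered libraries were not compared in this way. The genes, lists and tests were chosen with earlier results of these data known. Named genes were the 3 genes, their nearest neighbours, tRNA genes called in leaf, the 3 genes most alike to each, and the 2 just inside and just outside the threshold. Alternatives covered pairing, scaling, pseudocount, depth filter, interval, flank width, trend with input and single libraries. No sequence was used.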

Additional observations from a re-analysis of the deposited data

Results flagged for a closer look

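Each of 12 groups of 4 leaf values was checked for a value far from the rest by Dixon's criterion, which chance meets in about 1 group in 20. The trnQ level in leaf input 2 was 3.08, against 1.45 to 1.52 in the other inputs. The trnT ratio of leaf pair 4 was 0.11, against 1.12 to 1.29. The trnM ratio of the gene minus its flanks was 0.57 in leaf pair 2, against 0.072 to 0.12.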

How the results depend on the processing

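No result changed direction past its threshold. With the replicate block (replicate number as pairs) 18 leaf genes were called in place of 0, and 16 with the block and centring on the median bin; blocked leaf ratios were 0.78 for trnQ and 0.92 for trnT (0.89 and 1.03 centred too). Within leaf libraries 1 and 3, 83 leaf genes were called (trnQ 0.98, trnT 1.14, trnM 0.50). Leaving out 1 library called 0 to 4 leaf genes, and leaving out 1 pair from the block 0 to 62 (chosen after seeing the data, as was the centred block); without pair 4 the ratios were 1.01, 1.19 and 0.66. Ratios with 1 library or pair left out ran from 0.43 to 1.09 for trnQ, 0.67 to 1.26 for trnT and 0.33 to 0.73 for trnM. Of gene minus flanks, 3 genes were called with the block, 3 also with centring, and 26 within libraries 1 and 3 (trnQ 0.40, trnT 0.31); trnQ was 0.36 in both blocked fits, and single libraries or pairs left out gave 0 to 8 calls (8 without pair 2, with trnQ 0.37 and trnT 0.29, and 6 without pair 4), with trnQ from 0.085 to 0.64 and trnT from 0.087 to 0.46. Col-0 calls were 12 in all, 36 with the block, 19 with flanks included, 23 with Col-0 alone and 4 to 14 with 1 library left out. Genotype calls were 3, 30 with the block and 0 to 9 with 1 library left out. With flanks included, the Col-0 ratio was 0.46 for trnT and 0.32 for trnM, and the genotype difference -0.62, -0.47 and -0.27 for trnQ, trnT and trnM. A pseudocount of 50% gave trnM 0.49 in Col-0 and a difference of -0.47. The ptac3 ratio of trnM ran from -0.088 to 0.090 with 1 library left out. Centring on the median bin moved the median genotype difference of all genes from 0.088 to -0.039 and those of trnQ, trnT and trnM to -1.14, -0.83 and -0.83. The causes of these changes were not tested. The lowest mean depth over the 3 genes was 62.0 reads per base, at trnM in 1 library.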
